A study of Mus musculus with 32 samples.

Results

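Aldoc, Eno3, Pkm and Ldha encode enzymes of 4 steps of glycolysis for which the mouse has more than 1 gene. They were followed in RNA from mouse mammary gland and liver on 32 oligonucleotide arrays in 9 groups. A gene was measured by every probe set annotated to it alone, which gave 5 probe sets for the 4 genes (1 each for Aldoc, Eno3 and Ldha, and 2 for Pkm, of which the brighter on average is called the main one) out of 8251 genes with such a probe set. All animals were wildtype FVB mice. Dams on normal chow gave mammary gland at 5 stages, 4 arrays each: days 12 and 17 of pregnancy, then days 1, 2 and 9 of lactation. Mammary gland at lactation day 10 came from dams moved at lactation day 5, for 5 days, to soy oil diets with 8% or 40% of calories as fat (3 arrays each). A further 3 mammary arrays were titled 16% fat, for which the labels do not state how or when the diet was fed, and 3 liver arrays came from the 8% diet. The descriptions of both the 8% and the 16% mammary arrays name 40% fat, so every diet comparison, and those of 8% fat with liver and chow, rest on the titles. Whether liver and mammary samples on 8% fat came from the same dams is not stated, and nothing in the labels says that each array was a separate animal, so the p-values measure the spread between these samples, which may be technical.

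Glycolysis turns glucose into pyruvate. Aldolase splits fructose bisphosphate into triose phosphates, enolase makes phosphoenolpyruvate, pyruvate kinase turns that into pyruvate with a gain of ATP, and lactate dehydrogenase reduces pyruvate to lactate and restores NAD. The isoforms are known by the tissues where they dominate. Aldoa is the form of muscle and many other tissues, and Aldoc that of brain. Eno3 is the muscle enolase, Eno1 the general form and Eno2 that of neurons. Pkm gives the M1 and M2 kinases by alternative splicing, whereas Pklr encodes the kinases of liver and red cells. Ldha is the subunit of muscle and of many growing cells, Ldhb that of heart and Ldhc that of testis. In the lactating gland glucose is drawn on for lactose, for the glycerol and fatty acids of milk fat, and for energy.

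The windows around the starts of these genes are shown as a description. Pkm and Ldha both peaked at lactation day 2 and fell by day 9, whereas Aldoc stayed well above its pregnancy levels at day 9. Any link between the windows and these courses was not tested. RefSeq windows of mouse build GRCm38.p6, from 250 bases before to 50 after a listed start, were found for all 4 genes: 2 starts each for Aldoc, Pkm and Ldha and 1 for Eno3. They are printed 5′ to 3′ on the strand of the gene, and capitals mark ACGTG on either strand, the core of the hypoxia response element, or the E-box CACGTG that contains it. The windows of Aldoc (chr11:78322823-78323122, first start), Pkm (chr9:59656326-59656625, first start, and chr9:59656977-59657276, second start) and Ldha (chr7:46845554-46845853, first start) all lie on the plus strand.
Aldoc, first start: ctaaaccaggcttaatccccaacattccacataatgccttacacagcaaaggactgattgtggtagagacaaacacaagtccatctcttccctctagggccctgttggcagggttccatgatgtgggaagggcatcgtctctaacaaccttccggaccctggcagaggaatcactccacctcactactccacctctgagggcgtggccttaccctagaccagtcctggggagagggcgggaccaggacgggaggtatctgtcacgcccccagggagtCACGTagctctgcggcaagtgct
Pkm, first start: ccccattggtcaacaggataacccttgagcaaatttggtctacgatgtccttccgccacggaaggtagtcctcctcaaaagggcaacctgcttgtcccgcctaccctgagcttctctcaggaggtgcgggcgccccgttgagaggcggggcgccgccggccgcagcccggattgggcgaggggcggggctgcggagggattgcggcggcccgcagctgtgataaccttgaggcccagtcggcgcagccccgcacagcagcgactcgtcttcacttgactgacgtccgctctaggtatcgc
Pkm, second start: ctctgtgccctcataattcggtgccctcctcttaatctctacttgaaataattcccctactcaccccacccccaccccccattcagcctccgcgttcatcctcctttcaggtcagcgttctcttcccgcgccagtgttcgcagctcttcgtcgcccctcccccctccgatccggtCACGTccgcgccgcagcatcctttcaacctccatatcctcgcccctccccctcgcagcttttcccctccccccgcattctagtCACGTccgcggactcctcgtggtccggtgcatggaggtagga
Ldha, first start: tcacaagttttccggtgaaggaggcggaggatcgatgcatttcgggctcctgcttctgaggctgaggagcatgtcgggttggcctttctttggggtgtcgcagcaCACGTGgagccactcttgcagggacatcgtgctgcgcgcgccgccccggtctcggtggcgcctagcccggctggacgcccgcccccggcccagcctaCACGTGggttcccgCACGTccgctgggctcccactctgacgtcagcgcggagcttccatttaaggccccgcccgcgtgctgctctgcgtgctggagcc
The Ldha window held 5 matches to ACGTG counted on both strands, between 145 and 34 bases before the start. Of these, 4 lie in 2 copies of CACGTG, each of which reads ACGTG on either strand. It also held 3 copies of the GC box GGGCGG on either strand. The first Pkm window held no ACGTG and 1 GC box, the second held 2 ACGTG and no GC box, and the Aldoc window held 1 ACGTG, after the start, and 1 GC box. The Eno3 window (chr11:70656926-70657225, plus strand) and the second windows of Aldoc and Ldha held none of these letters. Of 32851 windows of 300 bases in the same table, with 1 chromosome left out, 19.62% held ACGTG, 7.15% held CACGTG and 35.66% held GGGCGG. These matches describe the letters only, since no binding was measured.

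Intensities are values the authors had summarised per probe set, and levels below are log2 intensity, mean ± SD. Median intensity per array ran from 16.1 to 21.5, and each array's median correlation with the others of its group was between 0.987 and 0.995. The number of arrays limits the precision, and 95% intervals come from limma fits over all probe sets whose highest group mean reached log2 4.22. A call is an adjusted p under 0.05 (limma, Benjamini-Hochberg over all probe sets tested), and the percentage of all tested probe sets that was called is given where a comparison first appears. All 5 probe sets passed this filter in every fit, Eno3 by a small margin. A probe set's level is compared only with its own level in other groups. Equalising the median of 34 ribosomal protein genes on each array, as another scaling, moved the median change of all probe sets from 0.04 to 0.65 for lactation day 2 against pregnancy day 17. It moved that median from 0.01 to 0.17 for lactation day 9 against day 2 and from -0.13 to 0.94 for lactation day 9 against pregnancy day 12. In these 3 comparisons 51.0%, 35.3% and 45.3% of the calls were higher in the later stage as deposited, and 91.5%, 58.9% and 83.5% under that scaling. For lactation day 1 against pregnancy day 17 the same shares were 40.0% and 89.2%, for lactation day 2 against day 1 42.7% and 93.3%, and for lactation day 9 against pregnancy day 17 50.2% and 87.2%. For pregnancy day 17 against day 12 the share was 40.7% as deposited, 52.1% after quantile normalization and 74.6% with ribosomal medians equal, and for lactation day 9 against day 2 it was 50.4% after quantile normalization. The share higher in liver was 49.6% as deposited and 63.3% with ribosomal medians equal, that higher on 8% fat than on chow 57.3% and 89.6%. Between 40% and 8% fat it was 50% of 6 calls as deposited, 25% after quantile normalization and 66.7% with ribosomal medians equal, and between 40% and 16% it was 62.5% of 8 calls, 50% and 91.2%.

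Aldoc showed by far the largest change of the 4 genes at the onset of lactation. The intensities were 678, 471, 516 and 712 at pregnancy day 12 and 632, 613, 437 and 709 at pregnancy day 17. At lactation day 1 they were 3712, 2997, 2644 and 3349, and at lactation day 2 they were 3746, 3572, 3140 and 3779. Every array of early lactation lay above every array of pregnancy. In log2 terms Aldoc stood at 9.19 ± 0.29 and 9.20 ± 0.30 on the pregnancy days, 11.62 ± 0.21 at lactation day 1 and 11.79 ± 0.12 at lactation day 2 (SD, n = 4 each). The change between the pregnancy days was 0.01 (95% interval -0.33 to 0.35, limma adjusted p = 0.97), where 45.1% of all probe sets were called. Lactation day 1 exceeded pregnancy day 17 by 2.42 (SE 0.16), a 5.36-fold rise (limma adjusted p = 2.76e-09), where 23.3% of all probe sets were called. Lactation day 2 exceeded pregnancy day 17 by 2.59 (SE 0.16), or 6.03-fold (limma adjusted p = 1.09e-09). Between lactation days 1 and 2 the difference of 0.17 was within the spread of the arrays (95% interval -0.16 to 0.51, limma adjusted p = 0.48), while 14.3% of all probe sets were called. Under alternatives it reached up to 0.44 and was called in none (lowest limma adjusted p = 0.0676). Most of the rise was thus in place by the first day of lactation, and a smaller further rise is not excluded.

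**Figure D1:**
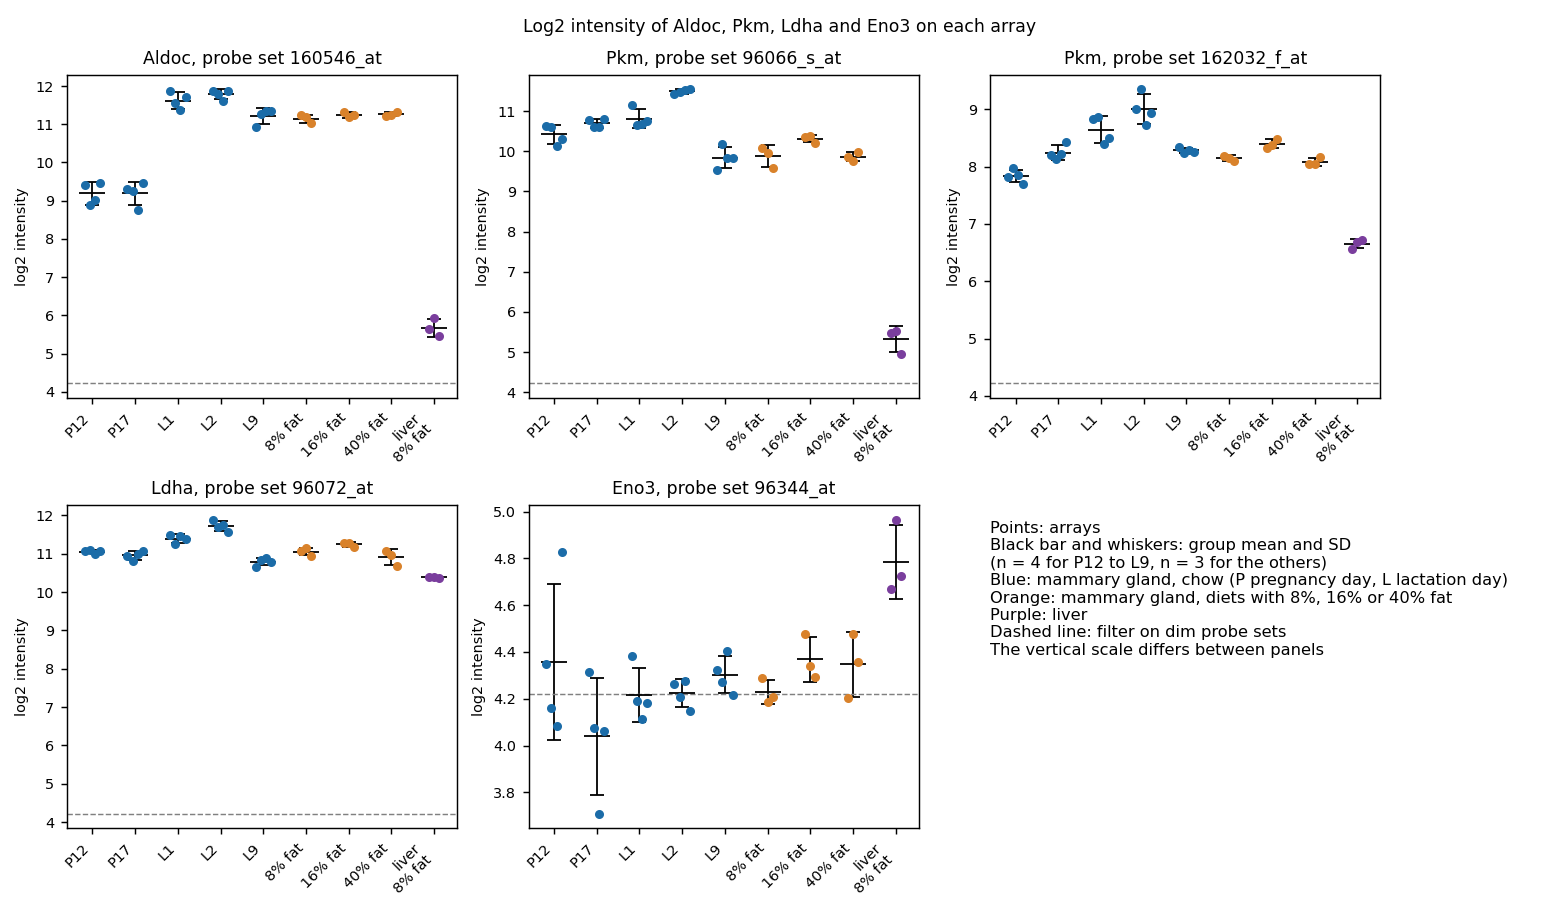
Log2 intensity of the 5 probe sets on each of the 32 arrays, by group on the horizontal axis, with group mean and SD in black. Aldoc steps up between pregnancy day 17 and lactation day 1. Both Pkm probe sets and Ldha have their highest means at lactation day 2, where the dimmer Pkm probe set overlaps lactation day 1. Eno3 stays near the dashed line at 4.22 that marks the filter on dim probe sets.

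Aldoc stayed high through lactation. At lactation day 9 the intensities were 1938, 2474, 2626 and 2607, all below those of day 2 and all above those of pregnancy. The mean of 11.22 ± 0.21 (SD, n = 4) lay 2.02 above pregnancy day 17, or 4.07-fold (limma adjusted p = 5.55e-09; 64.0% of all probe sets called), and 2.03 above pregnancy day 12 (limma adjusted p = 1.85e-09; 77.6% called). From lactation day 2 to day 9 Aldoc fell by 0.57 (1.48-fold, limma adjusted p = 0.0134), where 25.0% of all probe sets were called. That fall was not called without lactation day 9 replicate 1, the lowest array (-0.47, limma adjusted p = 0.0552), or with ribosomal medians equal (-0.43, adjusted p = 0.0991).

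Pkm peaked at lactation day 2. The main probe set read 1598, 1554, 1129 and 1257 at pregnancy day 12 and 1749, 1559, 1554 and 1800 at pregnancy day 17. It read 2288, 1616, 1647 and 1720 at lactation day 1, 2740, 2859, 2935 and 2990 at lactation day 2, and 745, 1154, 905 and 918 at lactation day 9. The arrays of lactation day 2 were the highest of all, and those of days 2 and 9 did not overlap. Log2 means were 10.42 ± 0.24, 10.70 ± 0.11, 10.81 ± 0.23, 11.49 ± 0.05 and 9.84 ± 0.26 in the order of the stages (SD, n = 4 each). Lactation day 2 exceeded pregnancy day 17 by 0.79 (SE 0.14), a 1.73-fold rise (limma adjusted p = 0.000167; 49.9% of all probe sets called). Almost all of it came after lactation day 1, which differed from pregnancy day 17 by 0.11 (limma adjusted p = 0.59) and from lactation day 2 by 0.68 (limma adjusted p = 0.00435; 14.3% called). By lactation day 9 Pkm had fallen by 1.65 (SE 0.14), or 3.13-fold, from day 2 (limma adjusted p = 2.08e-07; 25.0% called).

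The second Pkm probe set also rose from pregnancy day 17 to lactation day 2 and fell by day 9. It gave another timing of the rise and another order of the end points. Its log2 means were 7.84 ± 0.11, 8.25 ± 0.12, 8.65 ± 0.24, 9.00 ± 0.26 and 8.28 ± 0.05 from pregnancy day 12 to lactation day 9 (SD, n = 4 each). It rose by 0.76 from pregnancy day 17 to lactation day 2 (limma adjusted p = 0.000105) and fell by 0.72 to day 9 (limma adjusted p = 0.000341). Unlike the main probe set, it also rose between the pregnancy days (0.41, limma adjusted p = 0.0139) and from pregnancy day 17 to lactation day 1 (0.40, adjusted p = 0.0268). Its step of 0.36 between lactation days 1 and 2 was not called (limma adjusted p = 0.065), and these groups overlapped. A rise mostly after lactation day 1 was thus seen with the main probe set only. The probe sets disagreed on lactation day 9 against pregnancy day 12. The main one differed by -0.58 (limma adjusted p = 0.00096; 0.37 higher and not called, adjusted p = 0.0555, with ribosomal medians equal), whereas the second differed by 0.45 (adjusted p = 0.00354). Against pregnancy day 17 the main probe set differed by -0.85 at lactation day 9 (limma adjusted p = 3.99e-05, and -0.15 and not called with ribosomal medians equal) and the second differed by 0.04 (adjusted p = 0.81). The labels do not say which Pkm transcripts each probe set reads, so the M1 and M2 forms were not resolved. The suffixes s and f of Affymetrix names mark probe sets with probes that can match more than 1 transcript.

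Ldha moved with Pkm but over a smaller range. The intensities were 2162, 2171, 2032 and 2130 at pregnancy day 12 and 1975, 1800, 2040 and 2159 at pregnancy day 17. They were 2864, 2427, 2817 and 2669 at lactation day 1, 3796, 3301, 3438 and 3021 at lactation day 2, and 1624, 1826, 1892 and 1759 at lactation day 9. Each day of early lactation lay above all arrays of pregnancy, and day 9 lay below all arrays of pregnancy day 12. Log2 means were 11.05 ± 0.04, 10.96 ± 0.11, 11.39 ± 0.11, 11.72 ± 0.14 and 10.79 ± 0.09 (SD, n = 4 each). Ldha rose by 0.43 (1.35-fold) from pregnancy day 17 to lactation day 1 (limma adjusted p = 0.00159) and by 0.76 (1.70-fold) to lactation day 2 (adjusted p = 2.43e-06). The step of 0.33 between lactation days 1 and 2 (limma adjusted p = 0.0228) was not called when lactation day 2 replicate 1 or 3, or lactation day 1 replicate 2 or 4, was left out (adjusted p up to 0.0816). From day 2 to day 9 Ldha fell by 0.93 (SE 0.09), or 1.91-fold (limma adjusted p = 7.41e-07). Lactation day 9 differed from pregnancy day 12 by -0.26 (limma adjusted p = 0.014), which was not called after quantile normalization (-0.17, adjusted p = 0.133) and turned to 0.69 higher with ribosomal medians equal (adjusted p = 7.73e-05). Against pregnancy day 17 the difference was -0.17 (limma adjusted p = 0.117), and 0.54 under that scaling (adjusted p = 0.00106).

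Eno3 was dim in the mammary gland throughout. The intensities ran from 13.1 to 28.4 over the 20 arrays on chow, around the filter value of 18.6. Log2 means were 4.36 ± 0.33, 4.04 ± 0.25, 4.22 ± 0.12, 4.22 ± 0.06 and 4.30 ± 0.08 from pregnancy day 12 to lactation day 9 (SD, n = 4 each), and the groups overlapped in every pair of stages compared. No stage comparison called it (limma adjusted p from 0.0717 to 0.98), and the test for any change over the 5 stages gave adjusted p = 0.262. That test called the other 4 probe sets (limma adjusted p from 1.34e-11 for Aldoc to 1.37e-06 for the second Pkm probe set), where 87.5% of all probe sets were called. With ribosomal medians equal, Eno3 at lactation day 2 was 0.75 above pregnancy day 17 and called (limma adjusted p = 0.000431). Under the same scaling it was called for lactation day 1 (0.48, limma adjusted p = 0.0259) and day 9 (0.97, adjusted p = 2.17e-05) against pregnancy day 17, and the difference between lactation day 9 and pregnancy day 12 turned from -0.05 to 0.90 (adjusted p = 4.69e-05). It also reached a call between the pregnancy days in 5 alternatives, with limma adjusted p from 0.0295 to 0.0495, and for lactation day 9 against pregnancy day 17 with array weights or without pregnancy day 17 replicate 1 (adjusted p = 0.0464 and 0.0399). The 4773 probe sets that stayed under the filter value in all 9 groups also drifted, with a mean array median of 2.72 at pregnancy day 12, 2.86 at pregnancy day 17, 3.06 at lactation day 2 and 3.18 at lactation day 9, and their part in the levels of Eno3 was not tested. Of 10 skeletal muscle markers, 1 to 4 reached the filter value in any mammary group, and the muscle creatine kinase Ckm and the actin Acta1 did so in none. The 10 markers together summed to between 114 and 164 on the chow arrays, and of 4 tested between pregnancy day 17 and lactation day 2, 2 were called higher (0 of 2 tested after quantile normalization, 4 of 5 with ribosomal medians equal).

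**Figure D2:**
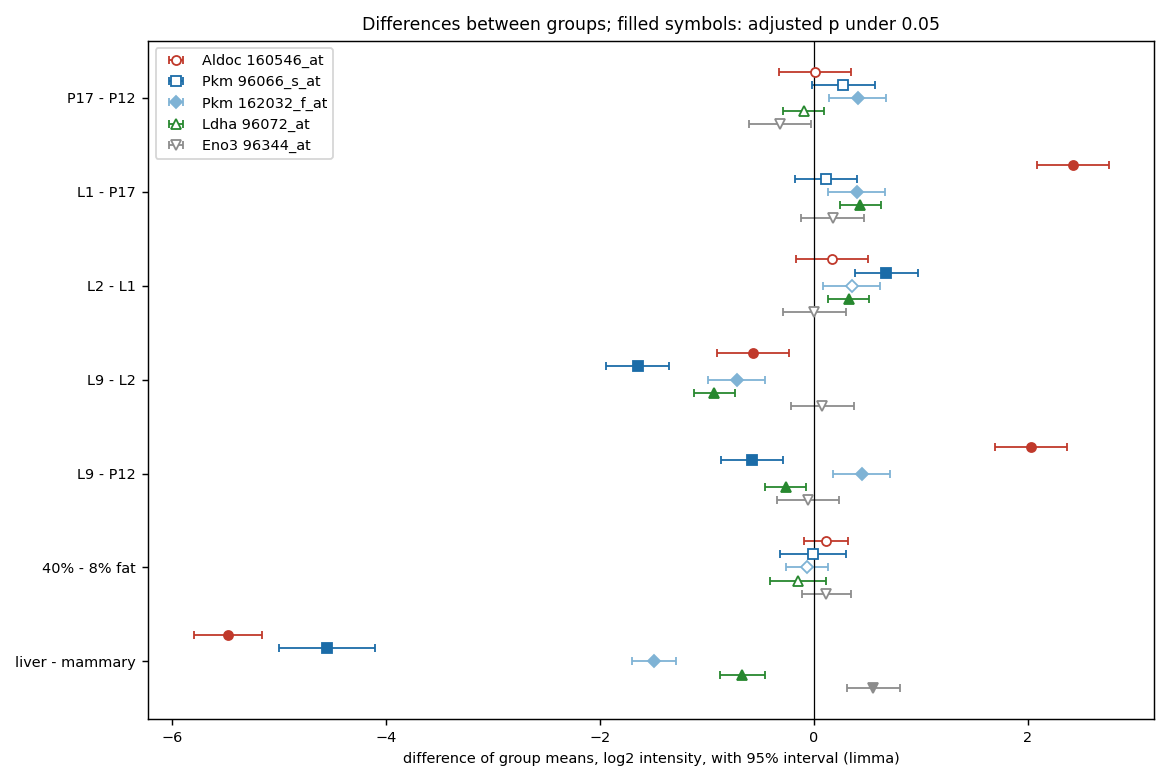
Differences of group means in log2 intensity with 95% intervals from limma (horizontal axis) for 7 comparisons (vertical axis; P and L stand for days of pregnancy and lactation), with filled symbols for adjusted p under 0.05. Aldoc has the largest rise, 2.42 at lactation day 1 against pregnancy day 17, all probe sets but Eno3 fall from lactation day 2 to day 9, the Pkm probe sets part for lactation day 9 against pregnancy day 12, and every gene but Eno3 is lower in liver.

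The rise of Aldoc from pregnancy day 17 to lactation day 2 was larger than that of each other gene. Measured within each array, which a single scaling factor per array cannot alter, log2 Aldoc minus log2 Pkm rose by 1.80, log2 Aldoc minus log2 Ldha by 1.83 and log2 Aldoc minus log2 Eno3 by 2.41. In each case the 4 arrays of lactation day 2 stood apart from the 4 of pregnancy day 17, which gives p = 0.0286 in an exact two-sided permutation test, the smallest that 70 regroupings allow, and adjusted p = 0.0286 over the 3 tests. These 3 tests were chosen with earlier results of these data known. Eno3 was near the filter value at both stages, so the pair with Eno3 mostly restates the rise of Aldoc. Of the 5 probe sets, 4 were called higher in this comparison, where 49.9% of all probe sets were called, 25.5% higher and 24.5% lower. For the same 4 the groups did not overlap, as for 50.3% of all probe sets. From lactation day 2 to day 9 the same 4 were called lower, where 8.82% of all probe sets were called higher and 16.2% lower, and again none of the 4 overlapped, as for 29.5% of all.

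Aldoa, the general aldolase, went the other way from Aldoc. Its brighter probe set read 2145, 1924, 1682 and 1836 at pregnancy day 17 and 1353, 1413, 1306 and 1286 at lactation day 2. It fell by 0.50 (1.41-fold, limma adjusted p = 0.00384) and its second probe set by 0.39 (adjusted p = 0.0296), though with ribosomal medians equal both turned to differences that were not called (0.07 and 0.18). Aldoa already differed by -0.50 at lactation day 1 (limma adjusted p = 0.0075; -0.20 and not called with ribosomal medians equal). It differed by -0.93 at lactation day 9 against pregnancy day 17 (limma adjusted p = 5.86e-06; -0.22 and not called under that scaling). Within each array, log2 Aldoc minus log2 Aldoa rose by 3.09 from pregnancy day 17 to lactation day 2, with arrays from -1.95 to -1.37 before and from 1.27 to 1.55 after (exact two-sided permutation p = 0.0286, the smallest possible). This pair was chosen after its values were seen. Eno1 was not analysed here.

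The other isoforms of the 4 steps were low or flat in the gland. The heart-type Ldhb stood between 6.02 and 6.37 in log2 mean over the 5 stages and was called in none of the comparisons with limma between late pregnancy and lactation (adjusted p 0.295 for lactation day 2 against pregnancy day 17). Pklr, Eno2 and Ldhc were under the filter value in all 8 mammary groups, and so was the second Ldhb probe set. Pklr, for example, ran from 2.53 to 3.03 on its brighter probe set.

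**Figure D3:**
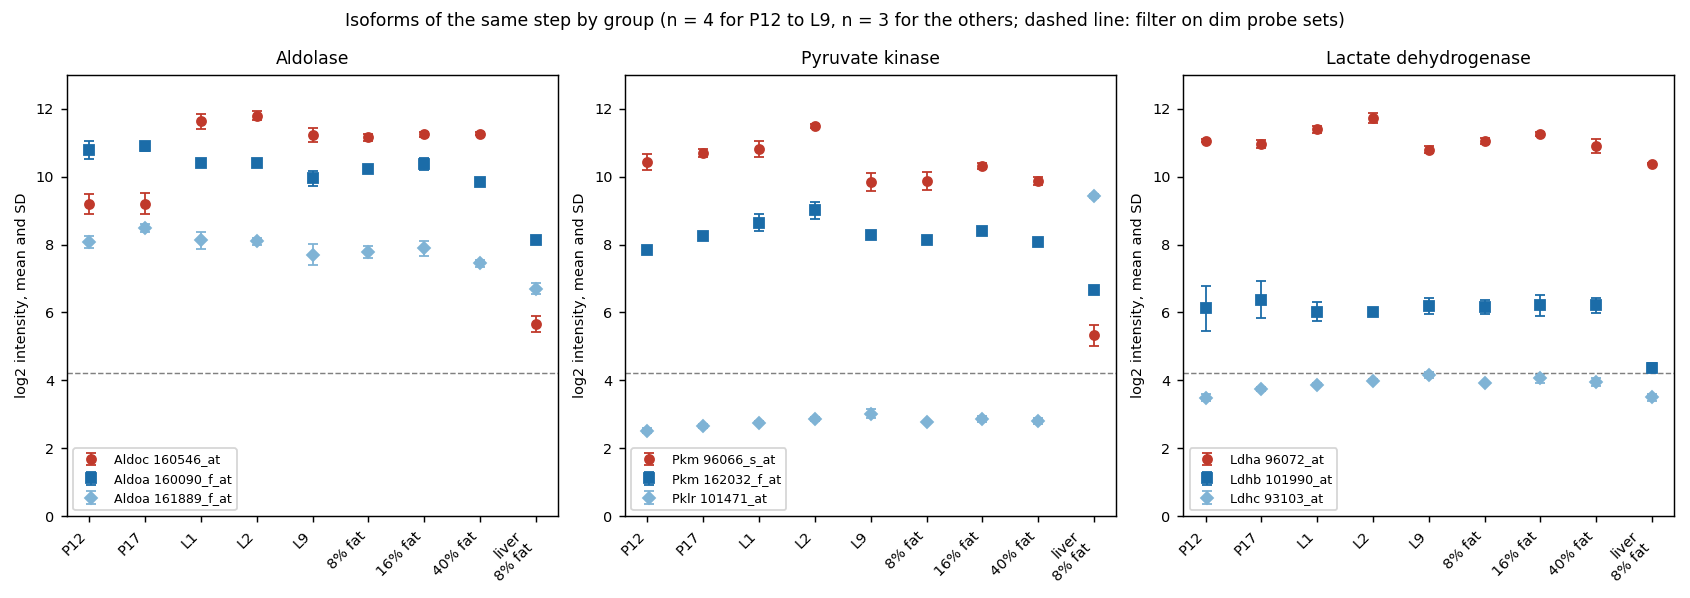
Mean and SD of log2 intensity by group for the isoforms of aldolase, pyruvate kinase and lactate dehydrogenase, with the filter value as a dashed line. Aldoc steps up where Aldoa steps down as deposited (Aldoa not with ribosomal medians equal), Pklr is under the filter value in all mammary groups and at 9.42 in liver, and Ldhb changes little between stages; levels of different probe sets are not comparable.

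Around these genes, glycolysis as a whole changed unevenly at the onset of lactation. Of 26 listed glycolysis genes, 20 had a probe set and 15 were tested over the stages. From pregnancy day 17 to lactation day 2, where 25.5% of all probe sets were called higher and 24.5% lower, 5 were higher: Aldoc, Pkm and Ldha, the mutase Pgam1 (0.72, limma adjusted p = 4.47e-05) and the phosphofructokinase Pfkm (0.38, adjusted p = 0.00119). The hexokinase Hk1 (-0.73, limma adjusted p = 2.91e-05, and -0.16 and not called with ribosomal medians equal) and Aldoa were lower, and 8 were not called. The median change was 0.23, beside 0.04 for all probe sets tested. With ribosomal medians equal, 13 of 17 tested were higher and none lower. At lactation day 1, where 23.3% of all probe sets were called, 3 were higher and 1 lower (3 and 2 after quantile normalization, 9 and 0 of 17 with ribosomal medians equal).

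From lactation day 2 to day 9 the list went down. Of the 15 genes 8 were lower, as were 16.2% of all probe sets, with a median change of -0.43 beside 0.01 for all probe sets tested. Besides Pkm, Ldha, Aldoc and Aldoa these were Tpi1, which interconverts the triose phosphates (-0.89, limma adjusted p = 0.000222), Pgk1, an ATP-forming kinase (-0.69, adjusted p = 0.00271), Pfkl (-0.65, adjusted p = 0.00125) and Pgam1 (-0.52, adjusted p = 0.0019). Only Hk1 was called higher (0.35, limma adjusted p = 0.0213). Without lactation day 9 replicate 1, 6 were lower and none higher, with Aldoc, Aldoa and Hk1 no longer called. After quantile normalization 4 were lower and 1 higher, and with ribosomal medians equal 6 were lower and 1 higher of 17, with a median of 0.20.

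**Figure D4:**
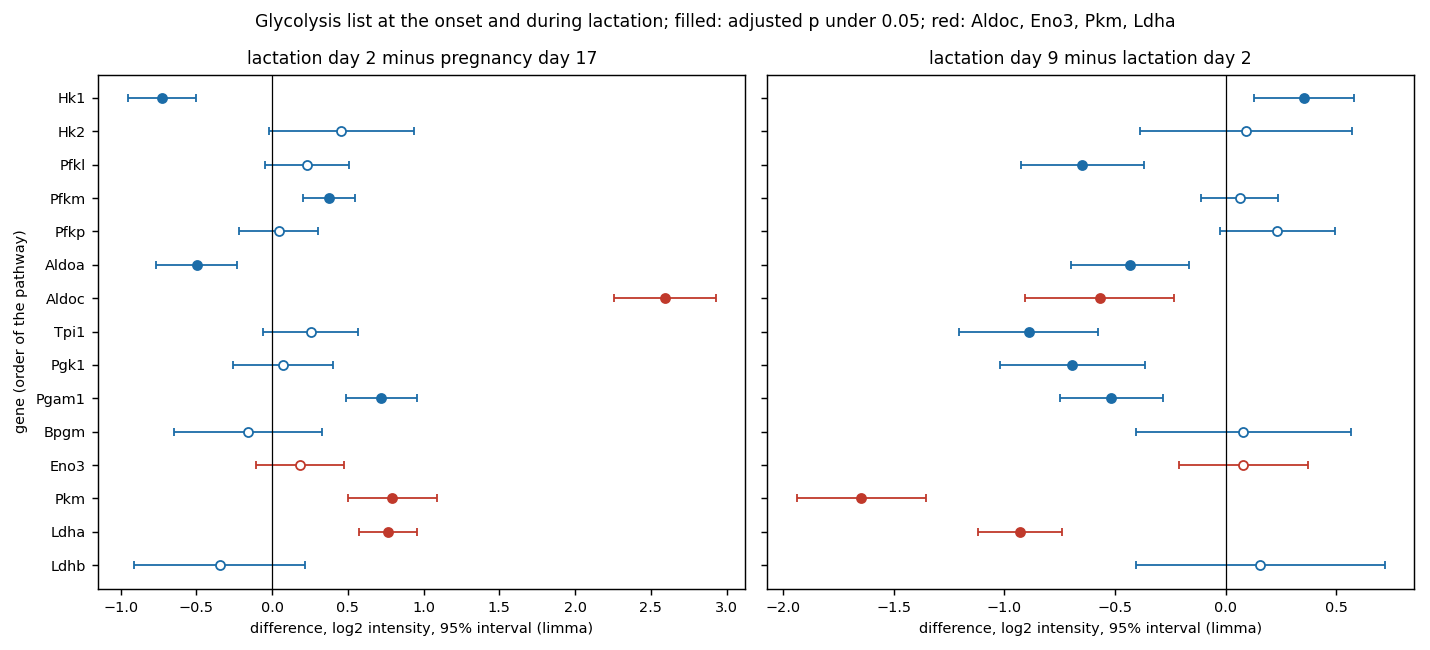
Change in log2 intensity with 95% intervals from limma (horizontal axis) for the 15 tested genes of the glycolysis list, in pathway order, at lactation day 2 against pregnancy day 17 (left) and day 9 against day 2 (right). Aldoc stands apart on the left at 2.59, while 8 genes are called lower on the right, Pkm the most at -1.65.

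Genes listed for the fate of pyruvate and lactate, a list that also held the glycerol phosphate dehydrogenases Gpd1 and Gpd2, moved in both directions at the onset of lactation. Of 20 listed, 13 had a probe set and 11 were tested, and 4 were higher and 4 lower at lactation day 2 against pregnancy day 17, beside 25.5% and 24.5% of all probe sets (5 and 2 of 10 with ribosomal medians equal). Pcx, which carboxylates pyruvate to oxaloacetate, rose by 1.07 (limma adjusted p = 4.83e-06), and Gpd1, which makes glycerol phosphate from a triose phosphate, by 1.16 (adjusted p = 9.24e-05). Pdhb and Dlat of the pyruvate dehydrogenase complex rose by 0.62 and 0.50 (limma adjusted p = 0.000543 and 0.00364), and its subunit Pdha1 fell by 0.72 (adjusted p = 0.000121). Pdk4 and Pdk3, kinases that switch that complex off, fell by 1.65 and 0.55 (limma adjusted p = 0.00088 and 0.0153), Pdk3 between levels that were both under the filter value. Gpd2, the mitochondrial glycerol phosphate dehydrogenase, fell by 1.24 (limma adjusted p = 0.000254). Under ribosomal scaling Pdha1 was -0.15 and not called, Pdk3 was not tested, and the other 6 kept their directions and calls. From day 2 to day 9, Pcx, Gpd1 and Gpd2 fell by 0.88, 1.47 and 1.46 (limma adjusted p from 1.85e-05 to 0.000109). None of the 11 was called higher as deposited, 2 were after quantile normalization and 1 of 10 with ribosomal medians equal.

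Lactation day 9 against pregnancy day 12, where 77.6% of all probe sets were called, named further genes with changes of at least 1. The rise of Pdhb by 1.22 and of Dlat by 1.33 was called (limma adjusted p = 4.56e-08 and 2.4e-08), as was the fall of Pdk3 by 2.04, Gpd2 by 1.91, Pdk4 by 1.32, Bpgm, the red cell bisphosphoglycerate mutase, by 1.31 and Gpd1 by 1.00 (adjusted p from 5.89e-09 to 0.00193). Pdk3 and Gpd2 were under the filter value at lactation day 9. With ribosomal medians equal Pdk3 was not tested and the falls of Bpgm (-0.37), Pdk4 (-0.37) and Gpd1 (-0.05) were not called.

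Among 9 listed transcription factors of glycolytic genes, 7 had a probe set and 6 were tested over the stages. At lactation day 2 against pregnancy day 17, 3 were higher and 2 lower, beside 25.5% and 24.5% of all probe sets (3 and 1 with ribosomal medians equal). The lipogenic factor Srebf1 rose by 1.21 (limma adjusted p = 3.09e-05), Arnt, the partner of the hypoxia factors, by 0.93 (adjusted p = 5.45e-06) and Mlx, the partner of the carbohydrate-response factor, by 0.59 (adjusted p = 0.00384). The growth factor-induced Myc fell by 1.21 (limma adjusted p = 0.00104) and the hypoxia factor Hif1a by 0.60 (adjusted p = 0.000792), the latter -0.03 and not called with ribosomal medians equal. Myc differed by -2.18 between lactation day 9 and pregnancy day 12 (limma adjusted p = 4.23e-07). Of 7 listed genes that set fructose bisphosphate, 4 had a probe set and none was bright enough to test over the stages.

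The makeup of the samples changed over the same stages. From pregnancy day 17 to lactation day 2, 6 of 7 adipocyte markers and 6 of 7 fibroblast markers were called lower, beside 24.5% of all probe sets. The summed adipocyte intensity went from 3826 to 4714 per array down to 1793 to 2907, and that of fibroblast markers from 10425 to 11164 down to 4543 to 6349. Milk secretion markers summed to 163820 to 183511 and then 207524 to 222013, with 3 of 6 called higher. Luminal epithelial markers had 1 of 8 higher and 6 lower, myoepithelial markers 0 of 4 higher and 3 lower, and macrophage markers 0 of 6 higher and 5 lower. Endothelial markers had 2 of 5 higher, lymphocyte markers 4 of 4 higher and erythrocyte markers 0 of 2 called. Hepatocyte markers, in this mammary comparison, had 5 of 5 tested higher, with a median change of 0.30. Of 8 measured, 1 reached the filter value at pregnancy day 17 and 2 at lactation day 2. The 4 lymphocyte markers were also dim, with sums of 64.4 to 95.2 and then 110 to 132. The part of the drift of dim probe sets in these rises was not tested. With ribosomal medians equal the lower calls were fewer, at 3 of 7 for adipocyte, 4 of 7 for fibroblast, 4 of 8 for luminal, 1 of 4 for myoepithelial and 1 of 6 for macrophage markers, and 6 of 6 milk and 5 of 5 endothelial markers were higher. From lactation day 2 to day 9, over which Pkm, Ldha and Aldoc fell, 5 of 7 fibroblast, 4 of 8 luminal, 2 of 4 myoepithelial, 1 of 7 adipocyte and 1 of 6 macrophage markers were lower, beside 16.2% of all probe sets, and no milk marker was called. Without lactation day 9 replicate 1 these lower calls were 5, 4, 1, 0 and 0. Higher calls, beside 8.82% of all probe sets, were 1 of 8 luminal and 2 of 4 skeletal muscle markers. Erythrocyte markers had 1 of 2 higher, and endothelial markers 1 of 5 higher and 1 lower. Without that replicate, higher calls were 1 luminal, 1 of 3 skeletal muscle, 2 of 2 erythrocyte, 1 endothelial and 1 of 6 macrophage markers. The erythrocyte sum was 1191 to 2136 at lactation day 2 and 564 to 8952 at day 9. The fibroblast sum at lactation day 9 was 1332 to 4167 and the myoepithelial sum went from 1816 to 1904 down to 793 to 1360, and their part in the falls of the members was not tested. Among nerve and glia markers, the kind of tissue where Aldoc and Eno2 are known for their levels, 2 of 7 reached the filter value at both stages, with sums of 111 to 120 and then 128 to 150 and 1 of the 2 called higher. The part of these shifts in the changes of Aldoc, Pkm and Ldha was not tested, and in whole tissue fewer cells of a type and less RNA per cell cannot be told apart.

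Dietary fat left no called change in any of the 5 probe sets. Aldoc read 2405, 2330 and 2093 on 8% fat, 2549, 2319 and 2406 on 16% and 2382, 2434 and 2559 on 40%, and the groups overlapped. Log2 means were 11.15 ± 0.11, 11.24 ± 0.07 and 11.26 ± 0.05 (SD, n = 3 each), and the difference between 40% and 8% was 0.11 (95% interval -0.09 to 0.32, limma adjusted p = 0.847). For the main Pkm probe set that difference was -0.01 (-0.32 to 0.30; 0.13 with ribosomal medians equal), for the second -0.06 (-0.26 to 0.14), for Ldha -0.15 (-0.41 to 0.12) and for Eno3 0.12 (-0.11 to 0.35), with limma adjusted p from 0.844 to 0.996. Of all 6483 probe sets tested 0.0925% were called, 0.0463% higher and 0.0463% lower, and 13.1% had groups that did not overlap, which none of the 5 did. At an unadjusted p under 0.05, 0 of the 5 and 538 of all probe sets passed. None of the 15 tested glycolysis genes was called (median -0.13, beside 0.01 for all), including Aldoa, which differed by -0.39 on 40% fat without overlap (limma adjusted p = 0.318).

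The 16% group stood highest for Pkm and Ldha, without a call. The main Pkm probe set read 1313, 1326 and 1189 on 16% fat, above the 1091, 1000 and 763 on 8% and the 929, 867 and 1015 on 40%. Ldha read 2496, 2474 and 2314 on 16%, above 2132, 2251 and 1977 on 8% and 2145, 2007 and 1627 on 40%. The groups did not overlap for both Pkm probe sets and Ldha in either comparison with 16%, nor for Eno3 between 16% and 8%. The main Pkm probe set differed by -0.45 between 40% and 16% (limma adjusted p = 0.221) and by 0.44 between 16% and 8% (adjusted p = 0.268). Ldha differed by -0.34 (limma adjusted p = 0.25) and 0.20 (adjusted p = 0.495). Of all probe sets, 0.123% were called between 40% and 16% and 17.1% had groups without overlap, and between 16% and 8% these were 0.00% and 21.4%. At an unadjusted p under 0.05, 3 of the 5 probe sets and 886 of all passed for 40% against 16%, and 2 of the 5 and 800 of all for 16% against 8%, while a fit of all 32 arrays called 27 in the latter. How the 16% diet was fed is not given, so whether this order is one of dose alone cannot be told.

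The 8% diet and chow at lactation day 9, which differ by diet and by 1 day, gave no call in the 5 probe sets. Aldoc differed by -0.08 (95% interval -0.37 to 0.22, limma adjusted p = 0.683; 0.020 with ribosomal medians equal), the main Pkm probe set by 0.03 (-0.37 to 0.44, adjusted p = 0.903) and Ldha by 0.26 (0.04 to 0.47, adjusted p = 0.0844). Eno3 differed by -0.08 (-0.27 to 0.12, limma adjusted p = 0.538; 0.019 with ribosomal medians equal) and the second Pkm probe set by -0.14 (-0.32 to 0.05, adjusted p = 0.246). The groups did not overlap for Ldha and the second Pkm probe set. Here 15.3% of all probe sets were called and none of the 5. Ldha was called without the filter (limma adjusted p = 0.0389) and with array weights (adjusted p = 0.0469).

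Liver differed from the mammary gland on the same diet in all 4 genes. Aldoc read 49.7, 60.8 and 43.9 in liver, or 5.67 ± 0.24 against 11.15 ± 0.11 in the gland (SD, n = 3 each), a difference of -5.48 or 44.5-fold lower (limma adjusted p = 1.08e-08). The main Pkm probe set read 44.8, 46.4 and 31.2 in liver, or 5.33 ± 0.32 against 9.88 ± 0.27, a difference of -4.55 or 23.4-fold lower (limma adjusted p = 2.71e-07), while the second differed by -1.49, 2.81-fold lower (adjusted p = 2.19e-06) and their mean by -3.02 (adjusted p = 1.39e-07). Both tissues were above the filter value, so these are differences between measured levels. Ldha was the least changed of the 3, with 1342, 1342 and 1313 in liver, 10.38 ± 0.02 against 11.05 ± 0.09, a difference of -0.67 or 1.59-fold lower (limma adjusted p = 0.000259). The size depended on the scaling, from -0.40 with ribosomal medians equal to -1.22 after quantile normalization, with limma adjusted p up to 0.0132. Eno3 alone was higher in liver, at 25.4, 31.3 and 26.4 against 19.5, 18.2 and 18.5. Its log2 mean was 4.79 ± 0.16 against 4.23 ± 0.05, a difference of 0.56 or 1.47-fold (limma adjusted p = 0.00176), both close to the filter value of 4.22. With log2(value + 16) it was 0.33 (limma adjusted p = 0.00459). Of all probe sets 80.0% were called, 39.7% higher in liver and 40.3% lower, and 83.1% had groups that did not overlap, as did all 5 here.

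The isoforms of liver stood against this. Pklr was at 9.42 ± 0.06 in liver and at 2.79 ± 0.03 in the gland, where it was under the filter value (limma adjusted p = 2.47e-10), so the size of the difference is not given. Aldoa differed by -2.09 in liver (limma adjusted p = 4.72e-07) and Ldhb by -1.78, at 4.38 ± 0.13 (adjusted p = 7.39e-06). Of 16 glycolysis genes tested 4 were higher in liver, namely Pklr, Eno3, Bpgm (5.96 against 4.01, the latter under the filter value, limma adjusted p = 8.17e-06) and Tpi1 (1.37, adjusted p = 3.81e-06). A further 10 were lower, led after Aldoc and Pkm by the hexokinase Hk2 (-3.76, limma adjusted p = 2.2e-08) and the phosphofructokinase Pfkl (-2.86, adjusted p = 9.25e-08), with a median of -0.75 beside -0.01 for all. The gluconeogenic Fbp1 stood at 11.81 in liver and 3.57, under the filter value, in the gland (limma adjusted p = 1.01e-08). All 8 measured hepatocyte markers were called higher in liver and all 6 milk markers lower, with milk sums of 39.0 to 42.1 in liver.

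In the pyruvate list 4 of 11 were higher in liver and 6 lower. The lactate carrier Slc16a7 was at 7.21 against 3.47, the latter under the filter value (limma adjusted p = 7.52e-09), while Gpd2 was higher by 2.18 (adjusted p = 5.14e-05) and Pdk1 by 1.45 (adjusted p = 0.000178). Dlat differed by -2.23 (limma adjusted p = 2.87e-06), Pdha1 by -1.83 (adjusted p = 5.97e-07), Pdhb by -1.62 (adjusted p = 1.24e-05) and Pcx by -1.14 (adjusted p = 0.000124). Of 7 transcription factors tested 3 were higher, among them the hypoxia factor Epas1 (5.40 against 4.01, the latter under the filter value, limma adjusted p = 6.47e-05) and Myc (1.26, adjusted p = 0.00286), and Hif1a alone was lower (-1.32, adjusted p = 2.99e-05).

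Over all 9 groups each gene had its own order of levels. Aldoc ran from lactation day 2 and day 1, which overlapped, through the 3 diets and lactation day 9, each overlapping its neighbour, to both pregnancy days, which overlapped, and then liver. The main Pkm probe set ran from lactation day 2, apart from the rest, through lactation day 1, pregnancy days 17 and 12 and 16% fat, each overlapping its neighbour, to 8% fat, 40% fat and lactation day 9, which overlapped, and liver. Ldha began with lactation day 2 and ended with lactation day 9 and liver, with both ends apart from their neighbours. Eno3 was highest in liver, and all neighbouring mammary groups overlapped.

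The patterns over the 8 mammary groups were compared by Pearson's r of group means with 5793 other genes. The values of r are a description only, since all genes were read on the same arrays with the same scaling. The genes most like Aldoc were Sfrp1, a secreted Wnt inhibitor (r = 0.986), Acly, which makes cytosolic acetyl-CoA (r = 0.977) and the magnesium carrier Slc41a1 (r = 0.975). Pkm was most like the pentose phosphate enzyme Tkt (r = 0.965), the tubulin Tubb3 (r = 0.955) and Bsg, the chaperone of lactate carriers (r = 0.953). Ldha was most like the coatomer subunit Copz1 (r = 0.972), the cholesterol synthesis enzyme Dhcr7 (r = 0.958) and the pentose phosphate enzyme Pgd (r = 0.928). Eno3 had a range of only 0.33, and the genes nearest to it were Plpbp (r = 0.942), Nnt (r = 0.930) and Arl3 (r = 0.923). Among the 4 genes themselves the likeness was closest for Pkm and Ldha (r = 0.855), with 0.444 for Aldoc and Ldha and 0.050 for Aldoc and Pkm.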

How the data were processed

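Total RNA of mouse mammary gland and liver was read on 32 Affymetrix arrays. The authors deposited 1 table of probe set intensity on a linear scale, made with GCRMA per the submitters' processing notes; which version and settings, the labels do not state. Of 12488 probe sets, 66 controls were left out, 10833 had 1 gene symbol, 396 several and 1193 none, and 10817 of those with 1 symbol were matched to RefSeq. Values were floored at 1 (208 of 399616 were lower) and log2 transformed. Probe sets were kept where the highest mean of any fitted group was at least log2 4.22, the median over all values. Groups were compared with limma 3.58.1 in R 4.3.3 in 1 fit of the 20 stage arrays, 1 of the 9 diet arrays and 1 for each other pair, with Benjamini-Hochberg adjustment, and the steps were tested on simulated data. The main probe set of a gene was the brightest on average. Within-array differences had an exact permutation test. The genes, the lists and the tests were chosen with earlier results of these data known. Named were the 4 genes, the isoforms of the same steps, list genes called with a log2 change of at least 1 in 4 comparisons, and the 3 genes most like each by r; others were named after their values were seen. Alternatives were pseudocount 16, floor 8, no filter, the 75th percentile filter, quantile and ribosomal scaling, other sets of arrays in the fit, array weights, a replicate block, the mean over probe sets and leaving out each array. Liver on 40% fat was not analysed here.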

Additional observations from a re-analysis of the deposited data

How the results depend on the processing

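Of 901 values computed under alternatives for 51 results, 839 kept their direction and side of the threshold, 9 lost a call, 14 gained one and 39 changed sign. The rises of Aldoc, Pkm and Ldha at lactation day 2, the falls of Pkm and Ldha by day 9 and the 4 liver differences stayed called in every alternative that gave a value. With ribosomal medians equal, Eno3 at lactation day 2 against pregnancy day 17 became called (0.75), the fall of Aldoc from day 2 to day 9 lost its call (-0.43), and signs turned for lactation day 9 against pregnancy day 12 (Eno3 0.90, Pkm 0.37, Ldha 0.69), Ldha for day 9 against pregnancy day 17 (0.54) and pregnancy day 17 against 12 (0.15), Pkm for 40% against 8% fat (0.13), Eno3 for 40% against 16% (0.15) and, for 8% fat against chow, Aldoc (0.020) and Eno3 (0.019). Quantile normalization turned Eno3 for lactation day 2 against 1 (-0.12), day 9 against 2 (-0.017), day 9 against pregnancy day 17 (-0.00019), 40% against 16% (0.042) and 8% against chow (0.11), and Pkm for 40% against 8% (0.068) and 8% against chow (-0.13). The mean over Pkm probe sets gave -0.051 for 8% against chow. None of the turned values was called before, except Pkm and Ldha for lactation day 9 against pregnancy day 12; the cause was not tested.

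Leaving out 1 array at a time gave -0.63 to -0.47 for Aldoc from lactation day 2 to day 9, whose call was lost without day 9 replicate 1, and -0.16 to 0.098 for Pkm between 40% and 8% fat. Signs turned only for differences that were not called: Aldoc between the pregnancy days (-0.096 to 0.15) and for 40% against 16% fat (-0.011 to 0.057), Eno3 for lactation day 2 against 1 (-0.028 to 0.062), day 9 against pregnancy day 12 (-0.14 to 0.10) and 40% against 16% (-0.088 to 0.050), and Pkm for lactation day 1 against pregnancy day 17 (-0.0014 to 0.17) and 8% fat against chow (-0.074 to 0.18). The difference of Aldoc and each other gene ranged from 1.67 to 2.49.

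Nothing in the labels says that the replicate numbers in the titles pair the samples. Correlations of same-numbered arrays ran from -0.05 to 0.10 for lactation day 2 against pregnancy day 17, and no comparison had all above 0.1. For lactation day 2 against day 1 they ran from 0.073 to 0.135, with a mean of 0.107 beside -0.035 for arrays of other numbers. Whether the numbers mark shared handling was not tested. With a replicate block no call of the 4 genes changed, for example Aldoc for lactation day 9 against day 2 (-0.57, limma adjusted p = 0.00707), and calls over all probe sets for 8% fat against chow went from 1029 to 60.

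Calls over all probe sets ranged by setting from 2107 (75th percentile filter) to 7676 (no filter) about 3589 for lactation day 2 against pregnancy day 17, 1890 to 6873 about 3245 for pregnancy day 17 against 12, 1278 to 3614 about 1674 for lactation day 1 against pregnancy day 17, 523 to 3017 about 1027 for lactation day 2 against 1, and 2601 to 9266 about 4603 and 3085 to 10370 about 5577 for lactation day 9 against pregnancy days 17 and 12. They ranged from 1 to 26 about 6 for 40% against 8% fat, 1 to 45 about 8 for 40% against 16%, 0 to 27 about 0 for 16% against 8%, 3368 to 10292 about 5518 for liver, and 60 to 5128 about 1029 for 8% fat against chow. Low signal limits Eno3, which the 75th percentile filter removed.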
